A study of Cavia porcellus with 30 samples.

Results

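Complex I of the respiratory chain holds subunits encoded in the mitochondrial genome and subunits encoded in the nucleus, and the mRNAs of its mitochondrially encoded subunits were followed here in guinea pig kidney cells exposed to mercuric chloride. They are 7 of the 25824 transcripts in the tables. They were taken by identifier, as transcripts numbered within 1 run of Ensembl identifiers whose order and lengths fit the ND1, ND2, ND3, ND4L, ND4, ND5 and ND6 mRNAs of a mammalian mitochondrial genome. The tables hold no gene names, so each name used below is inferred.

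Complex I is the first enzyme of the chain: it takes electrons from NADH, passes them to ubiquinone and pumps protons across the inner membrane. The mitochondrially encoded subunits form the core of its membrane arm. The mRNAs of most of them are cut from long transcripts of the heavy strand, whereas ND6 is the mRNA read from the light strand. Cells of the renal proximal tubule are rich in mitochondria, since they take back solutes from the filtrate at a high cost in ATP, and mercuric chloride, an inorganic salt of mercury, is toxic to them.

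The libraries came from renal tubular epithelial cells of Hartley guinea pigs. By the study's methods they were primary cells grown from proximal tubules of the renal cortex of animals a few weeks old, cultured over more than a week and replated. The last 48 h before exposure were spent in Hepatocyte Maintenance Medium. They then received that medium as vehicle, mercuric chloride at 30 µM (low dose) or mercuric chloride at 40 µM (high dose), and RNA was taken at 12 or 24 h. The doses had been picked from viability assays, which measured cellular ATP content. The paper took the high dose as the lowest with apparent cell death and the low dose as the highest with mild or no damage. It reports some loss of viability at either dose. Each of the 6 groups of agent and time held 5 libraries, 30 in all, with totals of 21651452 to 35021210 estimated counts. The labels do not say whether libraries of 1 group came from separate animals or cultures, so p-values measure only the spread between these libraries, which may be technical. Cell type markers could not be looked up without gene names, so the labelled cell type was not checked against them.

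The members span a wide range of lengths. ND1 (ENSCPOT00000017558.1) has 960 bases and ND2 (ENSCPOT00000017562.2) has 1044 bases, which are 320 and 348 whole codons. ND3 (ENSCPOT00000017577.2) has 346 bases and ND4L (ENSCPOT00000017579.1) has 297 bases. ND4 (ENSCPOT00000017580.1) has 1378 bases, ND5 (ENSCPOT00000017584.2) has 1812 bases and ND6 (ENSCPOT00000017585.2) has 531 bases. ND3 and ND4 each leave 1 base beyond whole codons, at 115 and 459 codons.

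All 7 were abundant in every library. Estimated counts ran from 4387 for ND4L to 90159 for ND4. The 7 mRNAs together took 1.02% ± 0.0462 (SD, n = 5) of the counts in vehicle at 12 h and 1.19% ± 0.0265 in vehicle at 24 h. All 13 inferred mitochondrial mRNAs took 2.94% ± 0.144 and 3.33% ± 0.0565 in the same groups. At the 6 significant digits deposited, the estimates of ND2 departed from a whole number in 29 libraries and those of ND4 in 4, which marks reads that also fit another transcript, while the other 5 members had whole estimates at that precision.

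Levels of different mRNAs were compared per length, in TPM, a share of all transcripts corrected for effective length. ND6, a membrane-arm subunit next to the junction with the arm that holds the electron carriers, had the highest TPM in all 6 groups. It stood at 7591 ± 291 TPM (SD, n = 5) in vehicle at 12 h and at 7777 ± 277 in vehicle at 24 h. Low-dose libraries averaged 7448 ± 204 TPM at 12 h and 7746 ± 243 at 24 h, and high-dose libraries 7170.3 ± 143 and 8130.5 ± 248 TPM. ND6 was between 2.12 and 2.65 times the mean TPM of the other 6 members in the 30 libraries, and its lowest library in each group was above the highest of ND1. The libraries were poly-A enriched from a stranded kit, but the sources used here do not say that counting used strand. Without it, reads of ND6 and reads of heavy-strand RNA antisense to it cannot be told apart.

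ND1, which lies at the same junction close to the ubiquinone site, and ND2, one of the antiporter-like subunits that form the proton channels, followed. ND1 stood at 3761 ± 95.3 TPM and ND2 at 3670.5 ± 147 TPM in vehicle at 12 h, and these neighbours overlapped in all 6 groups. ND3, a small subunit near the ubiquinone site, came next at 3417 ± 223 TPM in that group. It overlapped ND2 in 4 of 6 groups and lay below it in vehicle at 24 h and with the high dose at 24 h. ND4, an antiporter-like subunit, stood at 2918 ± 72.6 TPM and ND4L, a small subunit whose reading frame overlaps that of ND4, at 2588 ± 98.6 TPM. ND3 and ND4 overlapped with the high dose at 24 h alone among the groups, and ND4 and ND4L in vehicle at 24 h alone. ND5, the antiporter-like subunit at the far end of the membrane arm, was lowest in every group, at 1921 ± 29.1 TPM in vehicle at 12 h. The order of group means was the same in all 6 groups.

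**Figure D1:**
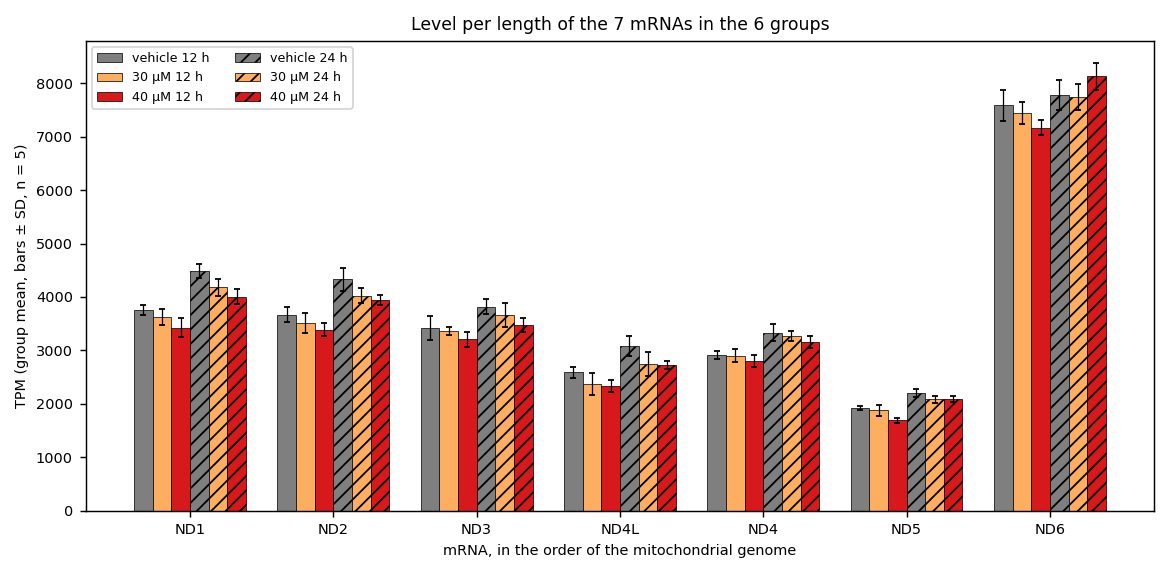
TPM of the 7 mRNAs (vertical axis, from 0) in the 6 groups of agent and time; bars are group means and error bars the SD of 5 libraries. ND6 stands above the other 6 mRNAs in every group, at 7591 ± 291 TPM in vehicle at 12 h, and ND5 is lowest, at 1921 ± 29.1 TPM.

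In vehicle, most of these mRNAs rose between 12 and 24 h. Changes of a single mRNA were measured in CPM, a share of the library total scaled by TMM factors, and tested with the edgeR quasi-likelihood test with Benjamini-Hochberg adjustment over all transcripts tested, called at an adjusted p under 0.1. In a bulk sample, fewer cells with an mRNA and less of it per cell cannot be told apart. In vehicle at 12 h the libraries held ND1 at 1841, 1865, 1878, 1768 and 1699.7 CPM. In vehicle at 24 h they held 2296, 2206, 2252, 2238 and 2267 CPM. All 24 h libraries were above all 12 h libraries, and ND1 was 24.4% higher (log2 fold change 0.32, SE 0.03, adjusted p = 0.00038 by edgeR). ND5 rose by 0.26 (SE 0.02, edgeR adjusted p = 0.00039). It ran from 1894 to 2023 CPM at 12 h and from 2257 to 2412 CPM at 24 h, again with no overlap.

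Of the 7 mRNAs, 5 were called higher at 24 h in vehicle and 0 lower, beside 1.38% of the 16614 transcripts tested called higher and 2.16% called in either direction. ND2 rose by 0.30 (edgeR adjusted p = 0.0033), ND4 by 0.25 (edgeR adjusted p = 0.0040) and ND4L by 0.27 (edgeR adjusted p = 0.052). The 2 that did not pass were ND3, at 0.18 (SE 0.06, edgeR adjusted p = 0.20), and ND6, at 0.09 (SE 0.03, edgeR adjusted p = 0.29). The 5 called mRNAs were also those of the 7 whose CPM did not overlap between the times, as held for 2.50% of 14172 transcripts with a mean of at least 50 counts in the higher direction. The median log2 fold change of the 7 was 0.26, against -0.00069 over all transcripts tested. Of the 6 other mitochondrial mRNAs (COX1, COX2, COX3, ATP6, ATP8 and CYTB, which encode subunits of complexes III, IV and V), 5 were called higher as well. The rise of ND4L was no longer called in 6 of the 10 fits without 1 library (without replicate 1, 2 or 4 at 12 h or replicate 1, 3 or 5 at 24 h), at 0.26 to 0.28. With a block on the position of the number in the library titles, the meaning of which the labels do not give, the values moved little (ND1 0.31, ND5 0.26), but 0 of the 7 and 0 of all transcripts were called. The share of all calls that were higher fell from 63.8% to 13.8% on log2(TPM + 1), where limma called 6 of the 7 higher, beside 0.903% of all transcripts.

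**Figure D2:**
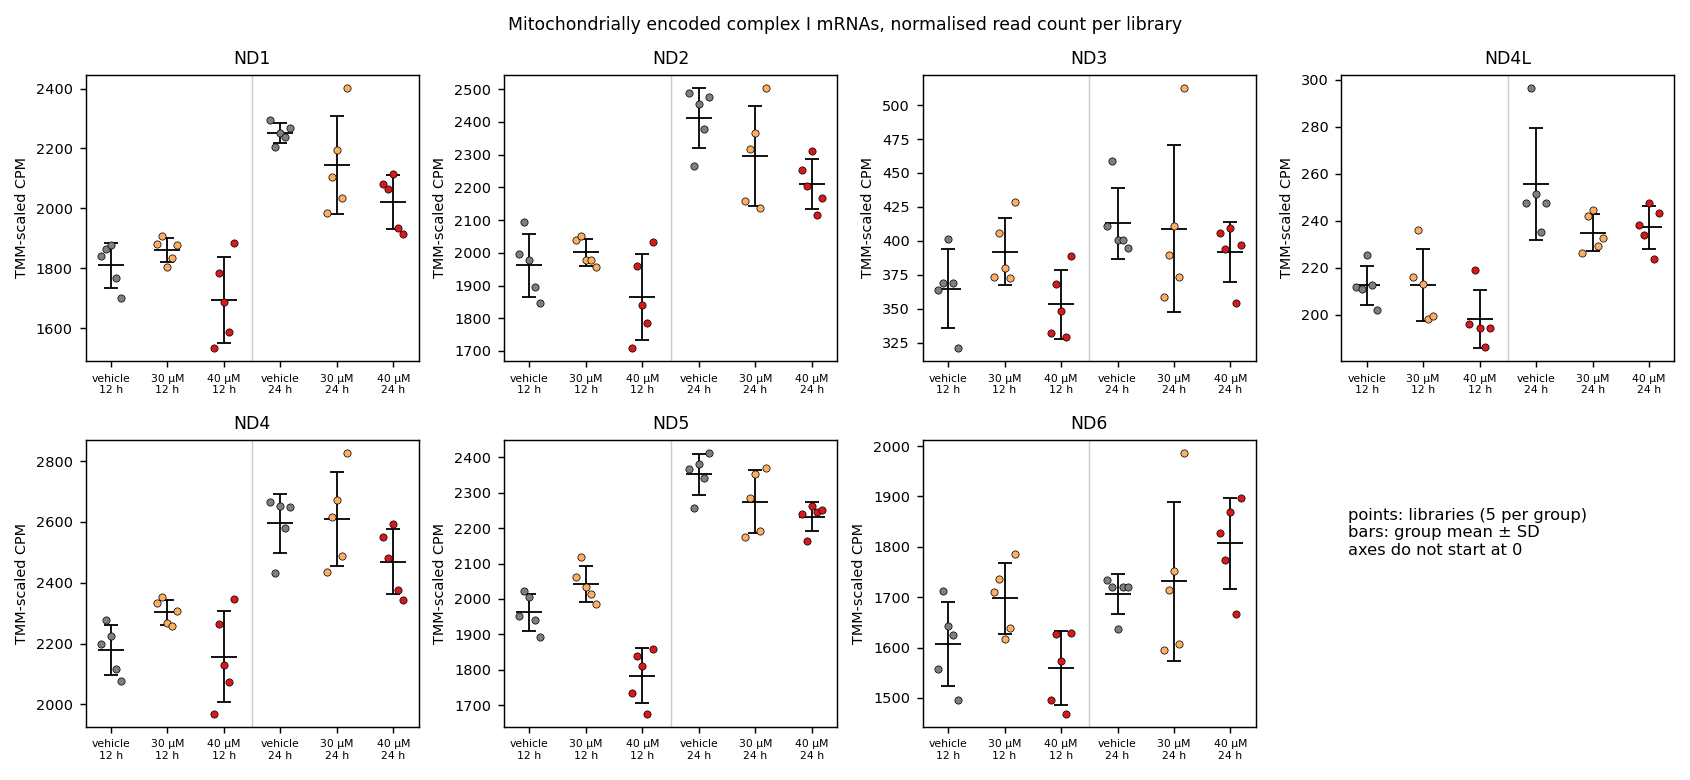
TMM-scaled CPM of each of the 7 mRNAs (vertical axes do not start at 0) in the 30 libraries, by group; points are libraries and bars the mean ± SD of 5. For ND1, ND2, ND4L, ND4 and ND5 every vehicle library at 24 h lies above every vehicle library at 12 h, and the libraries of ND5 with the high dose at 12 h lie below those of vehicle.

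The exposed cells also had more of most of these mRNAs at 24 h than at 12 h, given here as levels. With the low dose the CPM of 4 of the 7 (ND1, ND2, ND4 and ND5) did not overlap between the times and was higher at 24 h, beside 4.33% of the 14172 transcripts. With the high dose this held for 5 of the 7 (ND1, ND2, ND4L, ND5 and ND6), beside 16.6%. ND6 went from 1559 ± 73.5 CPM (SD, n = 5) with the high dose at 12 h to 1807 ± 91.1 at 24 h, and in vehicle from 1607 ± 82.9 to 1706 ± 39.2 with overlap. The 4 comparisons with vehicle and the comparisons over time share libraries, so their values are not independent.

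With the low dose at 12 h the mRNAs stayed close to vehicle, with log2 fold changes between 0.00 (ND4L) and 0.11 (ND3). Of the 7, 1 was called, against 29.0% of 16698 transcripts in either direction and 15.0% in the higher direction, so the members were called no more often than the background. That mRNA was ND4, which had 2178 ± 82.0 CPM (SD, n = 5) in vehicle and 2303 ± 41.5 with the low dose (0.08, SE 0.03, edgeR adjusted p = 0.054). Its groups overlapped, from 2076 to 2278 and from 2256 to 2354 CPM. All 7 values were above 0 on the TMM scale and below 0 on log2(TPM + 1), where the share of all calls that were higher fell from 51.8% to 23.9% and ND4 was at -0.01 (limma adjusted p = 0.83), so no direction is given for them. ND4 was also not called with all 30 libraries in 1 fit (edgeR adjusted p = 0.20), without replicate 4 of vehicle (0.07) or without replicate 2 of the low dose (0.07). Without replicate 2 of vehicle, ND5 (0.07) and ND6 (0.11) were called besides ND4, where 13.6% of all transcripts were called higher. ND5 was also called besides ND4 without replicate 3 of vehicle (0.07, edgeR adjusted p = 0.098) or replicate 5 of the low dose (0.07, edgeR adjusted p = 0.081).

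With the high dose at 12 h, ND5 was lower than in vehicle. Its libraries stood at 1951, 2023, 2006, 1941 and 1894 CPM in vehicle, and at 1734, 1840.0, 1811, 1677 and 1858 CPM with the high dose. The groups did not overlap, as held in the lower direction for 20.1% of the 14172 transcripts. ND5 fell by 0.13 on the log2 scale (SE 0.03, edgeR adjusted p = 0.011) and was called in all 8 alternative fits and in all 10 fits without 1 library. The other 6 had log2 fold changes from -0.09 (ND4L) to -0.00 (ND4) and were not called. The 1 member called stands beside 25.8% of 16767 transcripts called lower and 50.9% called in either direction, so the members were called no more often than the background. On log2(TPM + 1), 4 were called lower by limma, ND1 (-0.14), ND2 (-0.12) and ND4L (-0.15) besides ND5, beside 30.7% of all transcripts called lower in that fit. ND1 ranged from 1533 to 1885 CPM with the high dose and from 1699.7 to 1878 CPM in vehicle. It was called at -0.12 without replicate 5 of the high dose, its highest library, and ND4L at -0.13 without replicate 2.

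With the low dose at 24 h, 0 of the 7 passed the edgeR test, and 0 had an unadjusted p under 0.05. DESeq2 also called 0, whereas limma on log2(TPM + 1) called ND1 lower (-0.10, adjusted p = 0.073), as it did 13.9% of transcripts. The background was 21.0% of 16607 transcripts. ND1 stood at 1986, 2105, 2195, 2034 and 2403 CPM, beside 2206 to 2296 CPM in vehicle at 24 h. Its log2 fold change was -0.07 (SE 0.04, edgeR adjusted p = 0.34). Replicate 5 was the highest of its group for ND1, ND2, ND3, ND4, ND5 and ND6. Without that library ND1 was called at -0.12 and ND2 at -0.11, where 14.3% of all transcripts were called lower. The mean length of the sequenced fragments was 189 bases in that library, the lowest of its group, where the highest was 216. The part of fragment length in these values was not tested.

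With the high dose at 24 h, 3 of the 7 were called lower than vehicle. The share of 16672 transcripts called lower was 14.0%, and 27.6% were called in either direction. The libraries of ND1 stood at 2081, 2063, 2114, 1934 and 1916 CPM, all below the lowest vehicle library at 2206 CPM, as held in the lower direction for 10.5% of the 14172 transcripts. ND1 fell by 0.15 on the log2 scale (SE 0.03, edgeR adjusted p = 0.0036), and its level thus decreased by 10.2%. ND2 stood at 2211 ± 76.1 CPM (SD, n = 5) against 2413 ± 92.6 in vehicle and fell by 0.12 (SE 0.03, edgeR adjusted p = 0.017). ND5 stood at 2232 ± 40.1 CPM against 2352 ± 58.6 and fell by 0.07 (SE 0.02, edgeR adjusted p = 0.038). Both overlapped with vehicle. The call of ND5 was lost on log2(TPM + 1) (limma adjusted p = 0.11), while those of ND1 and ND2 held in all 8 alternative fits and in all 10 fits without 1 library.

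The members did not all point one way in that comparison. High-dose libraries held ND6 at 1827, 1775, 1869, 1666 and 1896 CPM, and vehicle libraries held it at 1734, 1720.1, 1637, 1719 and 1720.3 CPM. With the high dose 4 of the 5 libraries were above all vehicle libraries and 1 was not. Its log2 fold change was 0.08 (SE 0.04, edgeR adjusted p = 0.13), which was past the threshold with DESeq2 alone among the 8 alternative fits (DESeq2 adjusted p = 0.078), and without replicate 4 of the high dose (0.11, edgeR adjusted p = 0.015). ND3, ND4L and ND4 were at -0.07, -0.11 and -0.07 and were not called, although ND4 was (-0.09) without replicate 2 of vehicle. On log2(TPM + 1), limma called ND3 (-0.14, adjusted p = 0.032) and ND4L (-0.18, adjusted p = 0.018) lower, beside 15.4% of transcripts called lower in that fit, and their TPM values did not overlap with vehicle, as held in the lower direction for 11.0% of the 14172 transcripts. In CPM both overlapped. The median of the 7 was -0.07, against 0.0016 over all transcripts tested. CYTB, the complex III subunit encoded beside ND6, was the 1 of the 6 other mitochondrial mRNAs called, and fell by 0.15 (edgeR adjusted p = 0.029).

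**Figure D3:**
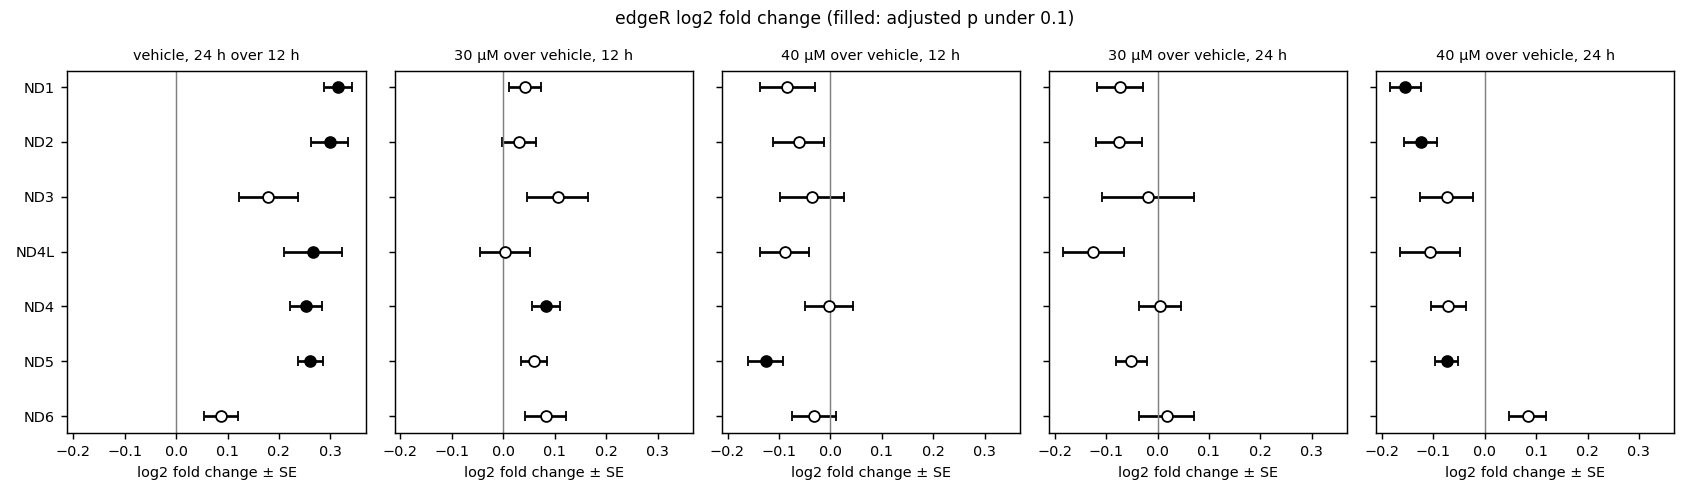
Log2 fold changes of the 7 mRNAs (horizontal axes, on the TMM scale) in 5 comparisons; points are edgeR estimates, error bars the SE, and filled points passed an adjusted p under 0.1. In vehicle over time 5 of 7 are filled to the right of 0; with the high dose at 24 h ND1, ND2 and ND5 are filled to the left of 0 and ND6 is open at 0.08.

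The doses were also compared with each other. At 12 h, 2 of the 7 were lower with the high than with the low dose, beside 16.7% of 16684 transcripts called lower and 33.5% in either direction. ND5 fell by 0.17 (SE 0.03, edgeR adjusted p = 0.0030), with low-dose libraries from 1985 to 2119 CPM and high-dose libraries from 1677 to 1858 CPM, which did not overlap, as held in the lower direction for 13.5% of the 14172 transcripts. ND6 fell by 0.10 (SE 0.04, edgeR adjusted p = 0.098). It was not called without replicate 1, 2 or 5 of the low dose or replicate 1, 3 or 4 of the high dose, at -0.11 to -0.08. It was also not called under an adjusted p of 0.05, on log2(TPM + 1) (-0.05, limma adjusted p = 0.25), on log2(TPM + 0.1) or with the block (edgeR adjusted p = 0.17). Without replicate 5 of the high dose 6 of the 7 were called, ND1 (-0.15), ND2 (-0.11), ND3 (-0.17) and ND4 (-0.11) besides these, where 18.6% of all transcripts were called lower. At 24 h, 0 of the 7 were called and 0 had an unadjusted p under 0.05. DESeq2 called 0. The background was 3.58% of 16664 transcripts. Their log2 fold changes at 24 h ran from -0.08 (ND1) to 0.07 (ND6).

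Whether the effect of a dose differed between the times was tested directly, as an interaction on 20 libraries. For the low dose, 0 of the 7 were called, beside 3.74% of 17393 transcripts, and the values ran from -0.12 (ND4L) to -0.06 (ND6). ND5 alone had an unadjusted p under 0.05 (-0.11, edgeR adjusted p = 0.22). When the fifth low-dose library at 24 h was left out, ND1 (-0.16) and ND5 (-0.12) were called, beside 3.75% of transcripts in that direction. For the high dose, 0 of the 7 were called, beside 30.0% of 17512 transcripts, and 0 had an unadjusted p under 0.05. The values there ran from -0.08 (ND1) to 0.11 (ND6, SE 0.06, edgeR adjusted p = 0.19), and ND6 was called at 0.14 without replicate 5 of vehicle at 12 h or replicate 4 of the high dose at 24 h. DESeq2 called 0 for either dose, while limma on log2(TPM + 1) called ND5 (0.10) and ND6 (0.15) for the high dose, beside 31.6% of transcripts called in that fit. The effects on ND1, ND2 and ND5 at 24 h are therefore not shown to differ from those at 12 h on the count scale.

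Each mRNA was then set against the other mitochondrial mRNAs of its own library, a quantity added after the data were seen. The count of the mRNA was divided by the summed counts of the 6 mRNAs of complexes III, IV and V, which removes a change common to all mitochondrial mRNAs. On this scale ND1 varied little within groups, with an SD between 0.01 and 0.02 (log2, n = 5). Its log2 ratio was -3.38, -3.39, -3.40, -3.37 and -3.39 in vehicle at 12 h, and -3.49, -3.44, -3.46, -3.49 and -3.46 with the high dose at 12 h. In vehicle at 24 h it was -3.26, -3.27, -3.24, -3.26 and -3.23, with the low dose -3.35, -3.34, -3.35, -3.35 and -3.35, and with the high dose -3.40, -3.38, -3.37, -3.35 and -3.37. The groups with the low dose at 24 h and with the high dose at either time did not overlap with their vehicle groups and were lower. On this scale 8.64% of the 14172 transcripts separated in that direction with the low dose at 24 h, 17.3% with the high dose at 12 h and 7.04% with the high dose at 24 h.

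Tested with that sum as library size, ND1 fell by 0.08 with the high dose at 12 h (SE 0.03, edgeR adjusted p = 0.023), by 0.10 with the low dose at 24 h (SE 0.02, edgeR adjusted p = 0.0062) and by 0.13 with the high dose at 24 h (SE 0.02, edgeR adjusted p = 0.0012). With the low dose at 12 h it was at -0.03 (edgeR adjusted p = 0.36), where 0 of the 7 were called and 0 had an unadjusted p under 0.05, beside 28.4% of transcripts, and DESeq2 called 0. With the high dose at 12 h, ND1 and ND5 (-0.12, edgeR adjusted p = 0.017) were the 2 called, beside 23.2% of transcripts lower and 45.2% in either direction. With the low dose at 24 h, ND1 and ND2 (-0.10, edgeR adjusted p = 0.058) were called, beside 9.57% lower and 17.0% in either direction. The block on the title position ended the call of ND1 with the high dose at 12 h (edgeR adjusted p = 0.14) and with the low dose at 24 h (edgeR adjusted p = 0.31), and that of ND2 with the low dose at 24 h (edgeR adjusted p = 0.38). ND2 was also not called in 5 of the 10 fits without 1 library (replicate 1, 3, 4 or 5 of vehicle or replicate 4 of the low dose), at -0.10 to -0.08.

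With the high dose at 24 h, 3 of the 7 were called on the relative scale, 2 lower and 1 higher, beside 9.80% of transcripts lower, 13.2% higher and 23.0% in either direction. ND2 fell by 0.10 (edgeR adjusted p = 0.051) besides ND1. ND6 was higher by 0.11 (SE 0.04, edgeR adjusted p = 0.077). The log2 ratio of ND6 was -3.67, -3.63, -3.70, -3.64 and -3.62 in vehicle at 24 h and -3.59, -3.60, -3.55, -3.57 and -3.39 with the high dose. The groups did not overlap, as held in the higher direction for 10.1% of transcripts on this scale, but replicate 5 of the high dose stood apart. The value of ND6 without that library was 0.07 and was still called. It was not called without any 1 of the 5 vehicle libraries or without replicate 3 of the high dose, at 0.10 to 0.12. ND2 was not called without replicate 3 or 5 of vehicle or replicate 1 or 2 of the high dose, at -0.09 to -0.08. CYTB is part of the sum and was itself lower on this scale (-0.12, edgeR adjusted p = 0.0030).

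The interaction on the relative scale was called for ND6 and the high dose, at 0.14 (SE 0.05, edgeR adjusted p = 0.074), the 1 of 7 called beside 15.2% of transcripts higher and 24.9% in either direction. The difference with vehicle was -0.03 at 12 h and 0.11 at 24 h. It was not called with the block (edgeR adjusted p = 0.12) or in 7 of the 20 fits without 1 library, at 0.10 to 0.14. Those libraries were replicates 2 and 4 of vehicle and 4 and 5 of the high dose at 12 h, and replicates 1 and 3 of vehicle and 5 of the high dose at 24 h. For the low dose 0 of the 7 were called by edgeR, beside 2.62% of transcripts. The 1 with an unadjusted p under 0.05 was ND1 (-0.07, edgeR adjusted p = 0.12), which DESeq2 called, as edgeR did once the fifth low-dose library at 24 h was left out.

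In vehicle, the rise from 12 to 24 h was uneven among the mitochondrial mRNAs. Relative to the 6 others, ND1 was higher by 0.14 (SE 0.02, edgeR adjusted p = 0.0015), ND2 by 0.12 (edgeR adjusted p = 0.010), ND5 by 0.08 (edgeR adjusted p = 0.032) and ND4 by 0.07 (edgeR adjusted p = 0.052). ND6 fell by 0.09 (SE 0.03, edgeR adjusted p = 0.031). ND1, ND2, ND5 and ND6 kept their calls in all 10 fits without 1 library, and ND4 did not. The 4 higher and 1 lower of 7 stand beside 0.476% of transcripts higher, 45.9% lower and 46.4% in either direction. These shares depend on the scaling, since the 6 others themselves rose, by a median of 0.20 on the TMM scale. On the TMM scale 1.38% of transcripts were called higher. The median of all transcripts was at -0.18 on this scale, so ND6 lay above that median and below the 6 other mitochondrial mRNAs. With the block, ND1 (edgeR adjusted p = 0.069) and ND6 (edgeR adjusted p = 0.099) were the 2 of the 7 called, 1 higher and 1 lower, beside 0.295% of all transcripts higher and 22.8% lower in that fit.

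**Figure D4:**
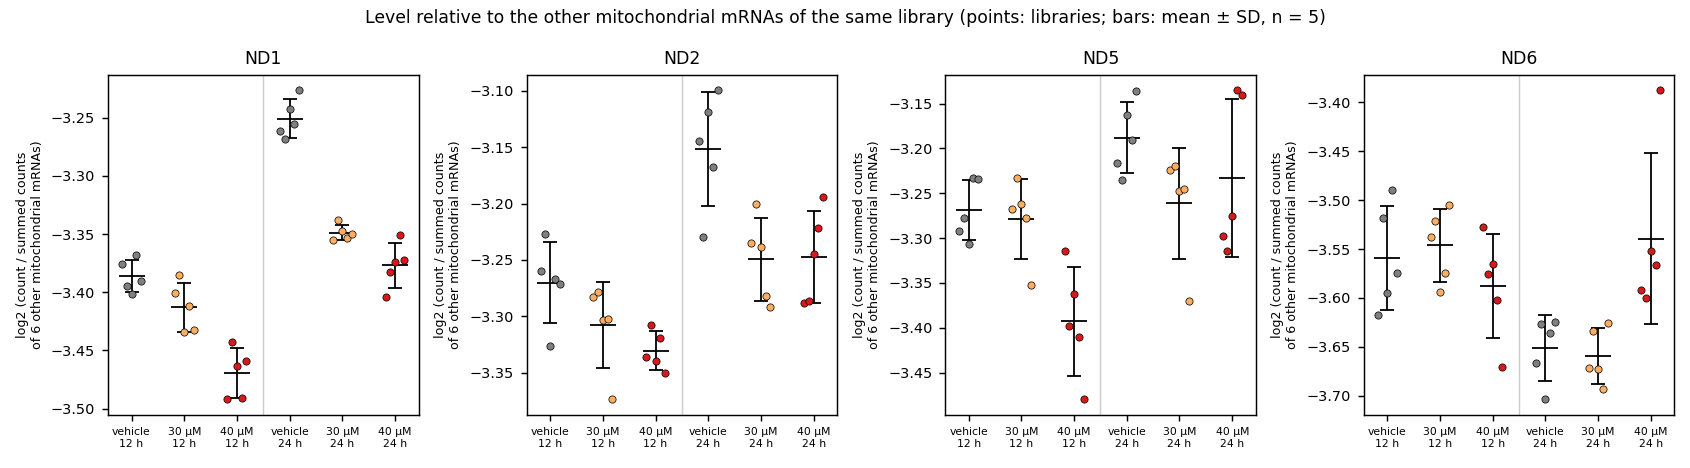
Log2 ratio of the counts of ND1, ND2, ND5 and ND6 to the summed counts of the 6 other mitochondrial mRNAs of the same library, by group; points are libraries and bars the mean ± SD of 5. ND1 is lower than vehicle without overlap at 24 h with either dose and at 12 h with the high dose; ND6 is higher with the high dose at 24 h, where 1 library stands at -3.39.

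The shortest members held single libraries far from their group. ND3 and ND4L are so short that their effective length, the number of places where a fragment can start, was 44.6% to 52.5% and 39.6% to 46.8% of their length, which depends on fragment length. In vehicle at 24 h, replicate 2 had the highest CPM of both, at 459 CPM for ND3 against 395 to 411 in the others and at 297 CPM for ND4L against 235 to 251. The same library had the shortest mean fragment of all 30, at 176 bases. The highest ND3 of all was 513 CPM, in replicate 5 of low-dose cells at 24 h. The part of fragment length in these values was not tested.

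Across the 30 libraries the 7 mRNAs varied together, which is given as a description, since the libraries share groups. Pearson's r of log2 CPM over the 21 pairs ran from 0.58 (ND4L with ND6) to 0.98 (ND1 with ND2), with a median of 0.78. Likeness to the mean of the 7 was ranked among 13726 transcripts with a mean of at least 50 counts and no count of 0. ND1, ND2, ND4 and ND5, which are part of that mean, ranked first, followed by COX2, COX1, CYTB, ATP6 and COX3. ATP8, the sixth of the other mitochondrial mRNAs, ranked 485 (r = 0.66). ND4L ranked 11, ND3 ranked 17 and ND6 ranked 31 (r = 0.80), although each is part of the mean. The 2 transcripts outside the mitochondrial run most like it were ENSCPOT00000033633.1, of 2599 bases (r = 0.87), and ENSCPOT00000009124.3, of 2683 bases (r = 0.85), for which the tables give no name.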

How the data were processed

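Poly-A enriched libraries of 30 samples were quantified by the authors with Kallisto (version 0.42.4 per the labels' processing notes) against the Ensembl guinea pig transcriptome, whose release is not given in the sources used here. The deposited tables give, per transcript, an estimated count, not normalised, and a TPM value corrected for effective length. Replicates were not pooled. Gene names were inferred from identifier order and length, as 0 identifiers matched the gene table. The planned lists of nuclear complex I genes and of cell type markers were therefore not run, and no sequence is printed.

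Samples were grouped by agent, dose and time in the labels. Estimated counts were rounded and tested with edgeR 4.0.16 (quasi-likelihood, TMM, filterByExpr) in R 4.3.3, over all transcripts and within the libraries of the groups compared. SE was obtained by dividing the log2 fold change by the root of F. TPM values were tested on log2(TPM + 1) and log2(TPM + 0.1) with limma 3.58.1 as alternatives, where a fold change is on that scale. The other alternatives were RLE factors, DESeq2 1.42.0, no filter, an adjusted p under 0.05, all 30 libraries in 1 fit, a block on title position, and leaving out each library. CPM used TMM factors over the 30 libraries. The scripts were tested on simulated counts. All 7 members were named, with the 6 other mitochondrial mRNAs and the 2 most similar transcripts. The members, lists and tests were chosen with earlier results of these data known.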

Additional observations from a re-analysis of the deposited data

Results flagged for a closer look

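In 84 sets of 5 libraries (each member and group, in CPM and as the log2 ratio to the 6 other mitochondrial mRNAs), 12 single libraries stood apart from the others by Dixon's test, where chance gives about 1 in 20 sets, or 4.2. In CPM these were ND3 (459 CPM) and ND4L (297 CPM) in replicate 2 of vehicle at 24 h, ND6 (1637 CPM) in replicate 3 of vehicle at 24 h, and, among high-dose libraries at 24 h, ND3 (354 CPM) in replicate 4 and ND5 (2162 CPM) in replicate 2. As log2 ratios they were ND2 (-3.37) in replicate 5 of the low dose at 12 h, ND3 (-5.53) and ND4L (-6.16) in replicate 2 of vehicle at 24 h, ND3 (-5.58), ND4L (-6.72) and ND5 (-3.37) in replicate 5 of the low dose at 24 h, and ND6 (-3.39) in replicate 5 of high-dose cells at 24 h. Of the 12, 4 fall in replicate 2 of vehicle and 3 in replicate 5 of the low dose at 24 h, the 2 libraries with the shortest mean fragments (176 and 189 bases). The 84 sets are not independent, since each library enters on 2 scales and the members vary together. An excess of 12 over 4.2 can therefore not be read from them.

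The effect of the high dose on ND6, relative to the 6 other mitochondrial mRNAs, was called as different between 24 h and 12 h. The interaction was 0.14 on the log2 scale (edgeR adjusted p = 0.074). This was the 1 of 7 called, beside 15.2% of transcripts called higher and 24.9% in either direction, so no more often than the background. The adjusted p ranged from 0.043 to 0.14 over the alternatives, and 7 of 20 fits without 1 library lost the call. On the TMM scale 0 of the 7 were called for this interaction.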

How the results depend on the processing

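Of 1274 values of single mRNAs under alternatives on the TMM scale, 1150 kept direction and side of the threshold, 29 lost the threshold, 44 reached it and 51 changed sign, 2 of them for a called result (ND4 with the low dose at 12 h). Relative to the 6 other mitochondrial mRNAs, 416 values were tallied, for ND1, ND2, ND5 and ND6 alone. Of these, 380 kept both, 28 lost the threshold, 5 reached it and 3 changed sign, none of the 3 for a called result. Where no value shows the cause of a change, the cause was not tested.

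On log2(TPM + 1) the low-dose values at 12 h changed sign: ND1 -0.055, ND2 -0.065, ND3 -0.021, ND4L -0.13, ND4 -0.011, ND5 -0.034 and ND6 -0.027, with the same values on log2(TPM + 0.1). The median of all transcripts moved to -0.10 on log2(TPM + 0.1), and relative to it ND4L was at -0.03 and the other 6 between 0.04 and 0.09. On both TPM scales ND4 (-0.026) and ND6 (-0.0056) with the low dose at 24 h, ND4L (-0.0096) and ND5 (0.0029) between the doses at 24 h, and the low-dose interaction of ND6 (0.021) changed sign. The number called on both TPM scales was 0 with the low dose at 12 h and 1 with the low dose at 24 h. It was 1 between the doses at 12 h, 2 for the high-dose interaction, and 4 or 5 with the high dose at 12 h. On log2(TPM + 1), 30.7% of all transcripts were called lower with the high dose at 12 h and 13.9% with the low dose at 24 h. For the high-dose interaction 31.6% were called in either direction on that scale. The share of all calls that were higher moved with log2(TPM + 1) from 50.2% to 39.0% with the low dose at 24 h, from 44.0% to 68.7% and from 52.6% to 63.3% for the low-dose and high-dose interactions, and from 47.6% to 60.8% between the doses at 24 h.

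DESeq2 called 2 with the low dose at 12 h, 4 between the doses at 12 h and, relative to the 6 others, 1 and 2 for the low-dose and high-dose interactions, beside 33.7%, 34.8%, 3.86% and 26.5% of all transcripts called by DESeq2 in these comparisons. Under an adjusted p of 0.05, 0 and 1 were called with the low dose and between the doses at 12 h, and all 30 libraries in 1 fit called 0 with the low dose at 12 h. With DESeq2 and with RLE factors ND4 with the high dose at 12 h was at 0.00083, and with no filter ND4L with the low dose at 12 h was at -0.0017.

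The block on title position called 0 with the low dose at 12 h and 0 in vehicle over time. Relative to the 6 others it called 1 with the high dose at 12 h and 0 with the low dose at 24 h. On that scale it called 0 for the high-dose interaction. In vehicle over time it called 2 there, beside 0.295% of all transcripts higher and 22.8% lower. It turned ND3 (0.024) and ND4 (0.035) with the high dose and ND4L (-0.024) with the low dose at 12 h. The labels give no shared replicate numbers, and no other pairing was tried.

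Without 1 library, 0 to 3 were called with the low dose at 12 h, beside 24.5% to 28.4% of all transcripts. With the high dose at 12 h, 1 to 2 were called, beside 46.3% to 50.8%. With the low dose at 24 h, 0 to 2 were called, beside 17.6% to 28.4%. Between the doses at 12 h, 1 to 6 were called, beside 26.9% to 35.4%, with 6 called without replicate 5 of the high dose. For the low-dose interaction 0 to 2 were called, beside 2.68% to 6.25%, and for the high-dose interaction 0 to 1, beside 26.8% to 31.7%. Relative to the 6 others, 1 to 2 were called with the low dose at 24 h, beside 13.4% to 24.8%. On that scale 1 to 3 were called with the high dose at 24 h, beside 18.9% to 22.4%. For either interaction 0 to 1 were called on that scale, where the main fits called 2.62% and 24.9% of transcripts. Values that changed sign ran, on the TMM scale, for ND3 from -0.10 to 0.036 between the doses at 24 h, -0.081 to 0.0015 with the high dose at 12 h, -0.080 to 0.0029 for the high-dose interaction and -0.11 to 0.025 with the low dose at 24 h. ND4 ran from -0.030 to 0.026 with the high dose at 12 h and -0.024 to 0.027 with the low dose at 24 h. ND4L ran from -0.051 to 0.042 for the high-dose interaction and -0.038 to 0.028 with the low dose at 12 h, and ND6 from -0.034 to 0.046 with the low dose at 24 h. Relative to the 6 others, ND5 ran from -0.021 to 0.0084 and ND6 from -0.0021 to 0.030 with the low dose at 12 h, and ND6 from -0.021 to 0.00049 with the low dose at 24 h. Every member had at least 4387 counts in every library, and counting error was not measured apart from the spread between libraries.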
